A study of Homo sapiens with 10 samples.

Results

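The 50 genes described here encode the DNA replication machinery: the origin recognition complex, the licensing factors, the MCM helicase and its activators, the replicative polymerases, the sliding clamp and its loader, RPA, the enzymes that finish Okazaki fragments and the enzymes that supply nucleotides. They were chosen by gene name, with earlier results of these data known, and all 50 were found among the 18144 genes of the table. RNA was sequenced from spheroids of PC-3, an established human prostate cancer cell line, labelled wild type. Three-dimensional spheroids were left untreated (days 0, 3 and 7) or were exposed to topotecan, an inhibitor of topoisomerase I that stalls replication forks, by one of 2 regimens and harvested on days 3 and 7. CONV-TOPO, the conventional regimen, was a bolus given at the start, and EE-TOPO, the extended exposure labelled METRO, was given as a fraction every day. By the paper the daily fractions add up to the bolus over a week, so by day 3 EE-TOPO spheroids had received less of the drug. Each treatment and day is 1 library, so 7 of the 10 samples of the series enter this report, and the day 1 samples were not analysed here. All groups share the cell line, the culture and the library kit. The labels give days, whereas the design text of the series speaks of an exposure over weeks, and days are used here. The spheroids are of 1 line, and the number pooled for each library is not given in the sources used here.

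Estimated depth was 15.0 M to 22.5 M reads per library (M, 1e+06). The 5 genes fixed as present in PC-3 (KRT8, KRT18, EPCAM, CD44 and VIM) summed to 2533 to 3512 CPM (reads of a gene per 1e+06 reads) as deposited. Of the markers of other cell types, 7 of 8 were listed and summed to 147 to 216 CPM, mostly CD68 (65.7 to 128 CPM) and COL1A1 (46.6 to 83.0 CPM). PECAM1, an endothelial marker, was at 16.8 to 32.7 CPM, while VWF, the other endothelial marker of the list, did not exceed 0.158 CPM. PTPRC, DCN and COL1A2 did not exceed 0.601 CPM in any library. The part of these markers in the results was not tested.

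Replication begins where the origin recognition complex marks DNA. CDC6 and CDT1 load the MCM2-7 ring there before S phase, and geminin holds CDT1 back once S phase has begun. The CDC7-DBF4 kinase, CDC45 and the GINS complex turn the loaded ring into an active helicase. Polymerase alpha-primase starts each new strand, polymerases epsilon and delta extend it on the PCNA clamp that RFC loads, and RPA covers the single strand. Most of these genes are transcribed before and during S phase, and E2F transcription factors are known to control many of them. In RNA from whole spheroids, fewer cells in S phase and less RNA per cell cannot be told apart.

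The E2F site is the best known shared element of these promoters, and the stretch that holds it is shown for 7 members with different day 7 values. The searched words were TTTCCCGC, TTTCGCGC, TTTGCCGC and TTTGGCGC on either strand. Each line is 100 bases before the annotated start, taken around the word, 5′ to 3′ on the gene's strand, from the RefSeq promoter table on GRCh38.p14, with the word in capitals.
CDT1 (chr16:88803689-88803788, plus strand): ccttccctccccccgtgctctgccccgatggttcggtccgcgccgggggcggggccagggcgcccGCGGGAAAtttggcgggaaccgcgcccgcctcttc
MCM7 (chr7:100101398-100101497, minus strand): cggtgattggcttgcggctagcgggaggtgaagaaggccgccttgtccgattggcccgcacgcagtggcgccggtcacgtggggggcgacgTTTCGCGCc
TYMS (chr18:657553-657652, plus strand): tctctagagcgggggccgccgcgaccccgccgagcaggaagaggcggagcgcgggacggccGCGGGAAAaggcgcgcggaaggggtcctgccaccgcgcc
PCNA (chr20:5126628-5126727, minus strand): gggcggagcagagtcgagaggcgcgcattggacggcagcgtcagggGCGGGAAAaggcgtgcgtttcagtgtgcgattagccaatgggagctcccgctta
RFC3 (chr13:33818048-33818147, plus strand): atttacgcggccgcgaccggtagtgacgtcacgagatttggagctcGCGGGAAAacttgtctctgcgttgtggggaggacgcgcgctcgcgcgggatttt
POLA1 (chrX:24693735-24693834, plus strand): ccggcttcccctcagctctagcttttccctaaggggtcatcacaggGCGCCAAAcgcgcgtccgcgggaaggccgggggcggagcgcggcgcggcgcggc
POLE (chr12:132687343-132687442, minus strand): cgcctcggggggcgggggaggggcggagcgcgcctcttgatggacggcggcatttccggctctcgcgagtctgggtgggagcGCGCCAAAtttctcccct
The word begins 35 bases before the start in CDT1, 9 in MCM7, 39 in TYMS, 59 in PCNA, 55 in RFC3, 137 in POLA1 and 18 in POLE. These starts are those of RefSeq. In the deposited table RFC3 begins further upstream, at 33818069, so its word lies inside the gene as listed there. CDT1, TYMS, PCNA and RFC3 hold TTTCCCGC on the opposite strand, MCM7 holds TTTCGCGC on its own strand, and POLA1 and POLE hold TTTGGCGC on the opposite strand. MCM7 has a further word 187 bases before its start. RefSeq windows of 300 bases, reaching from 250 bases before the start to 50 after it, were matched for 43 of the 50 members. MCM4, MCM5, GINS4, POLD3, RPA2, RPA3 and DNA2 were not matched.

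Levels are given as scaled CPM, the deposited CPM divided by a scaling factor of the library (trimmed mean of M values). Ratios are on the log2(scaled CPM + 1) scale, and they are relative to the other genes of the library. Where a gene is given by its 7 values, these are scaled CPM in untreated spheroids of days 0, 3 and 7, then in CONV-TOPO and EE-TOPO spheroids of day 3, then in the same order on day 7. All 50 members passed the filter on low values, with 90 to 6051 estimated reads per library. On untreated day 0, per kilobase of the canonical GENCODE transcript, TK1 had the highest level of the 50 at 141 scaled CPM per kilobase, followed by PCNA at 90.5, POLD2 at 77.3 and TYMS at 77.1. The lowest were MCM10 at 2.21, DNA2 at 3.30 and CDC7 at 3.62. MCM7 at 61.5 led the helicase ring, and no subunit of the origin recognition complex exceeded 12.1, the level of ORC5.

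Before any treatment is considered, the untreated day 3 library stood apart for these genes, on the high side. It held the highest value of 24 of the 50 members (48%) and of 10.5% of all genes. Against untreated day 0 the median member was 0.14 higher on day 3, with 36 of 50 higher, where 7387 of all 14731 genes were. CDC6, GINS3, GINS4 and RRM2 were at least 1.5-fold higher there, a step that 6.06% of all genes took, and DBF4 was 1.5-fold lower. From untreated day 3 to day 7 the median was -0.26 and 43 of 50 were lower, where 51.2% of all genes were. CDC6, CDT1, MCM7, GINS4, RFC2 and RRM2 were 1.5-fold lower on day 7 than on day 3 (4.25% of all genes). Between untreated days 0 and 7 the median was -0.14 and 0 members differed 1.5-fold in either direction, as 8.57% of all genes did.

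**Figure D1:**
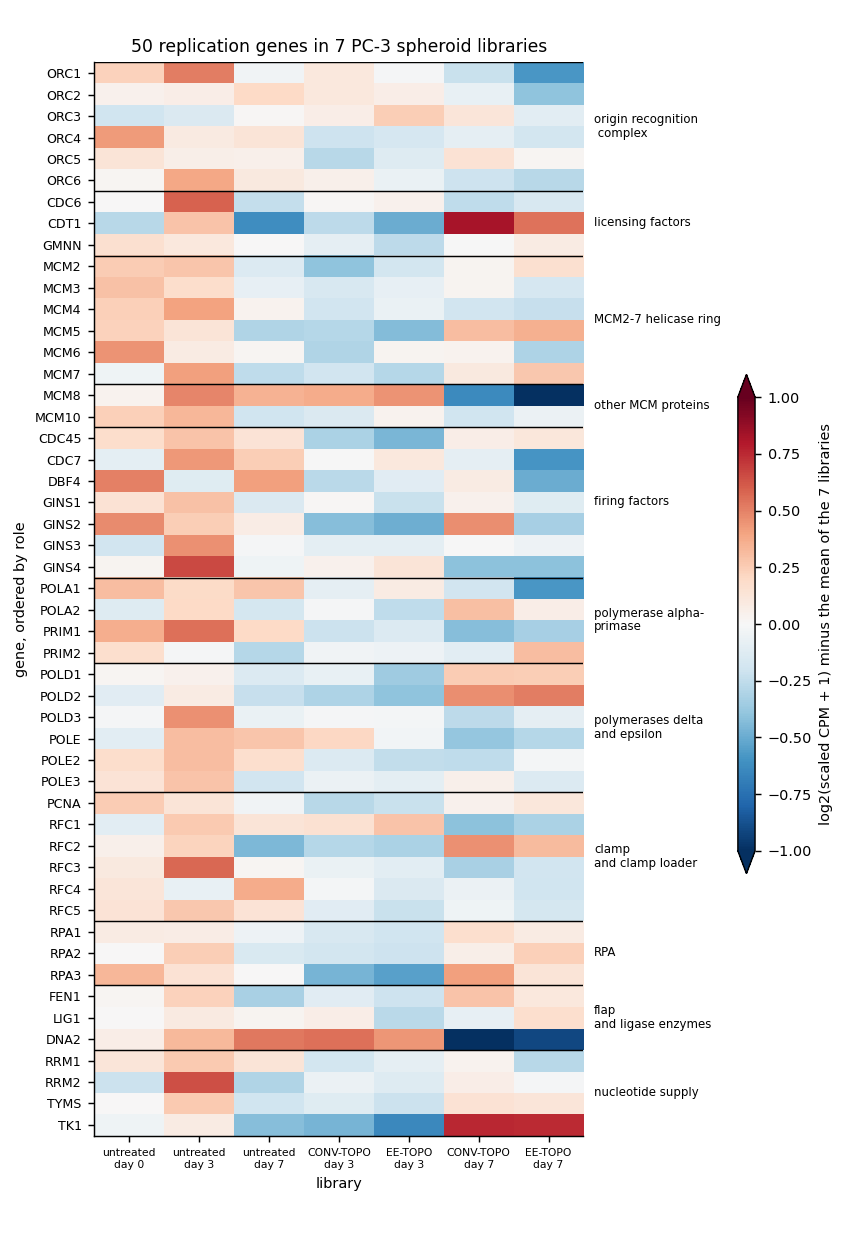
Level of each of the 50 members in the 7 libraries as log2(scaled CPM + 1) minus that gene's mean over the 7 libraries, with red above and blue below the mean and the scale cut at 1 in either direction. The untreated day 3 library holds the highest value of 24 members and the lowest of 0, and CDT1, TK1, DNA2 and MCM8 depart most on day 7.

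On day 3, most members were lower in treated than in untreated spheroids, in both regimens. With CONV-TOPO, 46 of 50 lay below untreated day 3, with a median log2 ratio of -0.39, against -0.01 over the 14731 genes tested. With EE-TOPO, 45 of 50 lay below, with a median of -0.45, against -0.02 over all genes. Both ratios share the untreated day 3 library. By the mean of the regimens, 47 members lay below untreated, and 51.7% of all genes did.

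A difference of at least 1.5-fold downward was reached by 10 members with CONV-TOPO, where 2.84% of all genes reached it, and by 9 with EE-TOPO, where 4.46% did. The 10 were MCM2, MCM4, MCM7, CDC45, GINS2, GINS4, PRIM1, RFC3, RPA3 and RRM2. The 9 were CDT1, MCM7, CDC45, GINS2, PRIM1, RFC3, RPA3, RRM2 and TK1. None of the 50 was 1.5-fold higher in either regimen, a step that 4.20% of all genes took with CONV-TOPO and 7.17% with EE-TOPO. The counting interval of the fold lay wholly below 1 for 38 members with CONV-TOPO and for 40 with EE-TOPO, and these intervals cover counting error only. They were not computed for all genes, so these counts have no share over all genes beside them.

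No member passed the test on day 3. In limma, with 1 mean for both regimens of a day and the untreated library as the baseline, 3 genes of all 14731 (0.0204%) had an adjusted p under 0.05, and 0 members did. At an unadjusted p under 0.05 there were 24 members, all lower, where 11.6% of all genes passed and 6.42% passed downward. The smallest adjusted p of a member was 0.130 for RRM2, at -0.73 ± 0.131 (log2 ratio ± SE). The error of this fit is the difference between the regimens, and the single untreated library of each day is assumed to vary like the treated ones.

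The size of the day 3 difference depended on the baseline library. Against untreated day 0 the member medians were -0.19 (CONV-TOPO) and -0.24 (EE-TOPO). Without the untreated day 3 library, against untreated days 0 and 7 as 1 group, the limma median was -0.12 and 0 members were called. Of all 14731 genes 212 were called there, 163 of them higher. At an unadjusted p under 0.05 there were 8 members, all lower, and 2513 of all 14731 genes, 1305 of them lower. With all 3 untreated libraries as 1 group the median was -0.22 and 0 members were called, as were 0 of all genes. There 14 members, all lower, and 2283 of all genes, 1250 of them lower, had an unadjusted p under 0.05. Both treated libraries of day 3 lay below all 3 untreated libraries for 20 members, where 18.3% of all genes had this order. These were ORC4, ORC5, GMNN, MCM2, MCM3, MCM4, CDC45, GINS2, POLA1, PRIM1, POLD2, POLE2, PCNA, RFC3, RFC5, RPA1, RPA2, RPA3, RRM1 and TK1.

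Genes of mitosis, which act after replication, were read beside these. The 17 mitosis genes (CCNB1, PLK1, MKI67 and others) had medians of -0.08 with CONV-TOPO and 0.35 with EE-TOPO on day 3. They were 0.51 lower in untreated spheroids on day 3 than on day 0 at the median, the untreated library in which the replication genes stood high. Their day 3 values thus depended on the baseline as well. Against untreated days 0 and 7 as 1 group, the limma median of the mitosis genes on day 3 was -0.60. With all 3 untreated libraries as 1 group it was -0.34. On day 7 the medians of the mitosis genes were -0.23 and -0.68. Their summed level ran from 685 to 1206 CPM over the 7 libraries, and its part in the replication results was not tested.

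On day 7 the members were divided, with as many above as below untreated spheroids. The median was 0.01 with CONV-TOPO and -0.03 with EE-TOPO, against -0.05 and -0.04 over all genes. With CONV-TOPO 6 members were at least 1.5-fold higher (19.0% of all genes) and 4 lower (22.5%). With EE-TOPO 6 were higher (20.2%) and 6 lower (23.2%). By the mean of the regimens 25 lay above untreated day 7 and 25 below, where 47.4% and 52.6% of all genes did.

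In limma on day 7, 12 members had an adjusted p under 0.05, where 39.1% of all genes did. CDT1, TK1, RFC2, POLD2, MCM5, FEN1 and MCM7 rose, and DNA2, MCM8, POLA1, POLE and RFC1 fell. The share of members called is below that of all genes. Scaling by library totals, which puts the median of all genes at -0.25 on this day in place of -0.05, turned the split from 7 higher and 5 lower to 4 higher and 13 lower. Over all genes, too, most calls were lower with library totals. With all 3 untreated libraries as 1 group there were 3 higher and 10 lower, where 3003 and 3442 of all 14731 genes were. In both settings the share of members called stayed below that of all genes.

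Day 7 directions near 0 depended on the scaling. With library totals, 35 of the 50 lay below untreated day 7 by the mean of the regimens. Their median was -0.23, against -0.25 over all genes. ORC5, CDC6, GMNN, MCM3, MCM10, GINS1, POLE3, PCNA, RPA1 and LIG1 then moved from above to below untreated. On day 3, 44 of 50 lay below with library totals, with a median of -0.34 against 0.04 over all genes. PRIM2, RFC1 and RFC4 then moved from just below to just above untreated. All ratios that follow are on the trimmed-mean scaling.

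**Figure D2:**
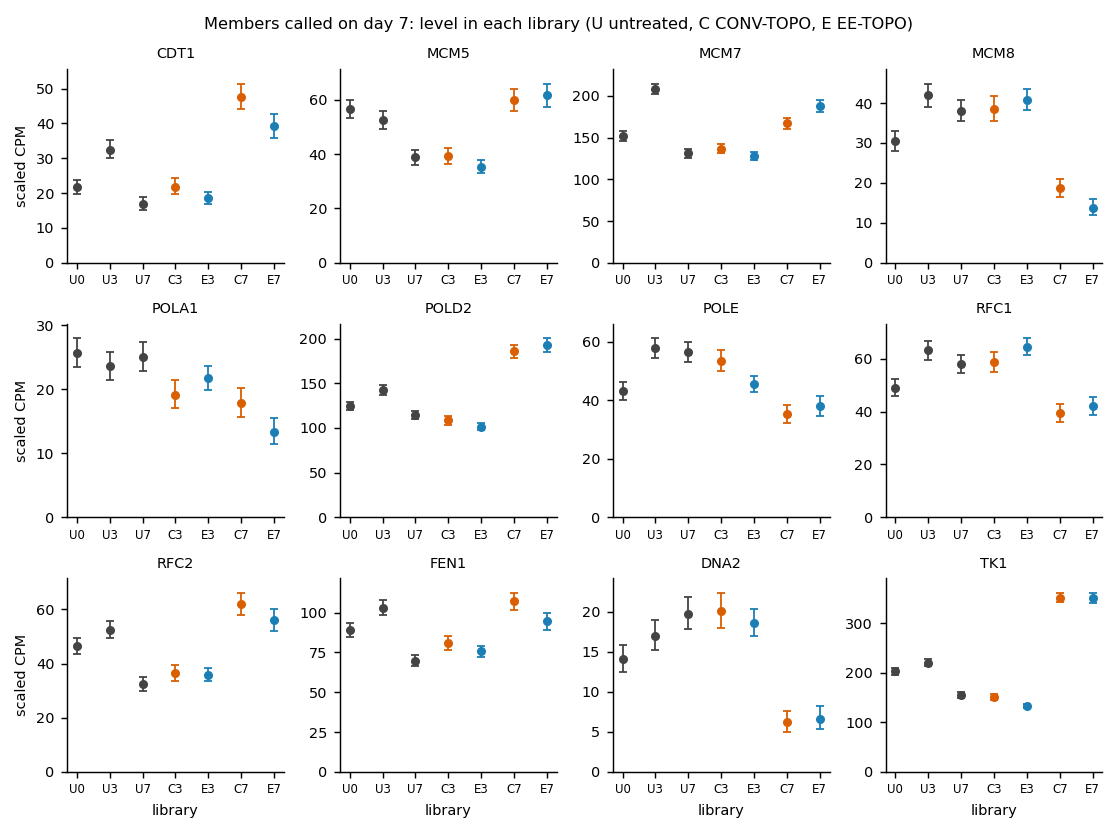
Scaled CPM of the 12 members called on day 7, with 1 point for each library (U untreated, C CONV-TOPO and E EE-TOPO, followed by the day) and bars for the 95% Poisson interval of its estimated reads, which covers counting error only. CDT1, POLD2, RFC2, TK1 and MCM5 lie above all untreated libraries in both regimens on day 7, and DNA2, MCM8, POLA1, POLE and RFC1 lie below them. With library totals CDT1, POLD2 and TK1 alone of the risers lie above.

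Few members stood clear of all untreated libraries on the high side. On day 7 both regimens lay above all 3 untreated libraries for CDT1, MCM5, POLD1, POLD2, RFC2, RPA1 and TK1, 7 of 50, where 29.4% of all genes had this order. With library totals CDT1, POLD2 and TK1 alone did. Both lay below all 3 for 18 members, where 34.0% of all genes did, and with library totals for 31 members, where 44.4% of all genes did. The 18 were ORC1, ORC2, ORC4, ORC6, MCM4, MCM8, CDC45, GINS4, POLA1, PRIM1, POLD3, POLE, POLE2, RFC1, RFC3, RFC5, DNA2 and RRM1.

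The difference to untreated changed between the days for 14 members, tested as the day-7 effect minus the day-3 effect in the same limma fit, with an adjusted p under 0.05, where 29.0% of all genes passed. Relative to untreated it moved upward for CDT1, TK1, RFC2, POLD2, MCM5, MCM7, RRM2, RPA3, FEN1, MCM2, TYMS and RPA2, and downward for DNA2 and MCM8. The split of 12 higher and 2 lower was 8 higher and 4 lower with library totals, where the calls of MCM2, RPA2, RPA3 and TYMS were lost. The share of members that passed was no higher than that of all genes. All 12 that moved upward were also lower in untreated day 7 than in untreated day 3. Their log2 ratios there ran from -0.14 (RPA3) to -0.94 (RRM2), so the untreated baseline moved as well for each of them. For CDT1, MCM7, RFC2 and RRM2 this fall in untreated spheroids was at least 1.5-fold. The change was largest for CDT1, at 1.97 ± 0.287 (adjusted p = 0.00222), and for TK1, at 1.81 ± 0.193 (adjusted p = 0.00150). Below untreated on day 3 and above on day 7, by the mean of the regimens, lay 25 members and 29.8% of all genes. Below on both days lay 22 members and 21.9% of all genes, and above on day 3 and below on day 7 lay ORC2, ORC3 and DNA2 (30.7% of all genes).

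**Figure D3:**
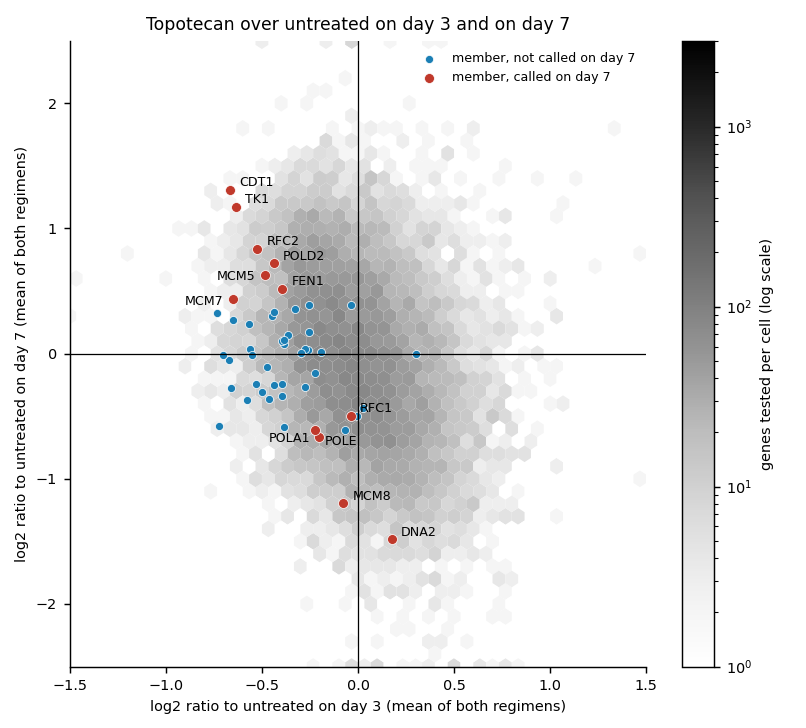
Log2 ratio to untreated on day 3 (horizontal) and on day 7 (vertical), each the mean of both regimens, for the 50 members over the grey density of all 14731 genes tested, with genes beyond the axes set at the edge. The members lie left of 0 on day 3 except ORC2, ORC3 and DNA2 (with library totals also PRIM2, RFC1 and RFC4), and spread from -1.48 (DNA2) to 1.31 (CDT1) on day 7.

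The origin recognition complex, 6 subunits that bind origins, had day 3 medians of -0.31 with CONV-TOPO and -0.22 with EE-TOPO. ORC2, a core subunit, read 28.5, 29.0 and 31.9 in untreated spheroids, 29.9 and 29.1 on day 3 of CONV-TOPO and EE-TOPO, and 26.2 and 20.7 on day 7, so it lay within the untreated range on day 3 and below it on day 7. ORC1, the subunit known to follow the cell cycle, read 13.3, 16.3 and 10.8 in untreated spheroids, 12.1 and 11.1 on day 3 of CONV-TOPO and EE-TOPO, and 9.44 and 7.10 on day 7. It was highest in untreated day 3 and lowest with EE-TOPO on day 7.

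ORC3, another core subunit, was above untreated in both regimens on day 3, at 11.2, 11.7 and 13.1 in untreated spheroids, 13.7 and 15.7 on day 3 of CONV-TOPO and EE-TOPO, and 14.3 and 12.1 on day 7. It had the highest day 3 ratio of the 50, 0.30 ± 0.236, which did not pass (adjusted p = 0.651). ORC5 was near its untreated level on day 7, at 23.2, 22.0 and 22.0 in untreated spheroids, 17.3 and 19.2 on day 3 of CONV-TOPO and EE-TOPO, and 23.6 and 21.5 on day 7. ORC4 and ORC6 lay below untreated in both regimens on both days, at mean ratios of -0.28 and -0.39 on day 3 and -0.27 and -0.34 on day 7. No subunit passed on either day.

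Among the licensing factors, CDT1 alone passed the test on day 7. CDT1, which with CDC6 loads the MCM ring, read 21.7, 32.5 and 16.9 in untreated spheroids, 21.9 and 18.5 on day 3 of CONV-TOPO and EE-TOPO, and 47.7 and 39.1 on day 7. Both day 7 libraries lay above every other library. The fold over untreated day 7 was 2.83 (95% interval 2.48 to 3.23) with CONV-TOPO and 2.32 (95% interval 2.02 to 2.67) with EE-TOPO. In limma CDT1 rose on day 7 by 1.31 ± 0.203 (adjusted p = 0.00138), and it kept its call under all 8 alternatives run. On day 3 it was at -0.66 ± 0.203, not called (adjusted p = 0.299).

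CDC6, the loading ATPase, read 31.1, 47.3 and 26.2 in untreated spheroids, 31.3 and 32.1 on day 3 of CONV-TOPO and EE-TOPO, and 25.9 and 27.7 on day 7, so its treated libraries lay near untreated days 0 and 7 and only untreated day 3 stood apart. GMNN, which encodes geminin, the inhibitor of CDT1, read 20.4, 19.5 and 18.2 in untreated spheroids, 17.0 and 15.0 on day 3 of CONV-TOPO and EE-TOPO, and 18.1 and 19.3 on day 7. Neither passed on either day, and on day 7 geminin was at 0.03 where CDT1 was at 1.31.

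All 6 subunits of the MCM2-7 helicase ring were below untreated on day 3, in each regimen, with medians of -0.50 and -0.46. MCM7, the subunit with the highest level per length, read 152, 208 and 131 in untreated spheroids, 137 and 128 on day 3 of CONV-TOPO and EE-TOPO, and 167 and 188 on day 7. On day 3 its fold was 0.656 (95% interval 0.623 to 0.691) with CONV-TOPO and 0.615 (95% interval 0.586 to 0.644) with EE-TOPO. MCM7 rose on day 7 by 0.43 ± 0.139 (adjusted p = 0.0338), although both day 7 libraries lay below untreated day 3. The call was lost under library totals, without the filter, without the mean-variance trend and with the untreated days grouped.

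MCM5 read 56.6, 52.6 and 38.8 in untreated spheroids, 39.3 and 35.4 on day 3 of CONV-TOPO and EE-TOPO, and 59.9 and 61.6 on day 7. It rose on day 7 by 0.63 ± 0.156 (adjusted p = 0.0115), a call lost under library totals and with the untreated days grouped. MCM4 read 168, 188 and 145 in untreated spheroids, 124 and 136 on day 3 of CONV-TOPO and EE-TOPO, and 124 and 121 on day 7, with both treated libraries of each day below all untreated ones. MCM6 read 69.5, 53.7 and 51.1 in untreated spheroids, 40.9 and 51.4 on day 3 of CONV-TOPO and EE-TOPO, and 51.7 and 40.6 on day 7, and its regimens crossed, with EE-TOPO above CONV-TOPO on day 3 and below it on day 7. MCM2 read 65.4, 66.5 and 49.6 in untreated spheroids, 41.2 and 48.1 on day 3 of CONV-TOPO and EE-TOPO, and 55.9 and 61.4 on day 7, and MCM3 was at a ratio of -0.30 on day 3 and 0.01 on day 7. The ring holds its subunits in equal numbers, and their day 7 ratios ran from -0.24 (MCM4) to 0.63 (MCM5).

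Of the other MCM proteins, MCM8, which acts with MCM9 in recombination repair, fell on day 7. It read 30.4, 41.9 and 38.0 in untreated spheroids, 38.5 and 40.8 on day 3 of CONV-TOPO and EE-TOPO, and 18.7 and 13.8 on day 7, with both day 7 libraries below every other. Its day 7 ratio was -1.20 ± 0.209 (adjusted p = 0.00230), called under all 8 alternatives. On day 3 it was at -0.08. MCM10, which helps to activate the loaded helicase, read 10.1, 10.8 and 7.14 in untreated spheroids, 7.48 and 8.59 on day 3 of CONV-TOPO and EE-TOPO, and 7.17 and 7.99 on day 7, and was not called on either day.

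The 7 firing factors had medians of -0.55 and -0.53 on day 3. GINS1 read 37.0, 41.1 and 30.2 in untreated spheroids, 33.7 and 28.6 on day 3 of CONV-TOPO and EE-TOPO, and 34.4 and 30.7 on day 7. GINS2, with the lowest day 3 ratio of the 7, read 18.5, 15.6 and 13.8 in untreated spheroids, 9.44 and 9.001 on day 3 of CONV-TOPO and EE-TOPO, and 18.3 and 10.1 on day 7. Its regimens parted on day 7, where CONV-TOPO was at the level of untreated day 0 and EE-TOPO stayed near the level of day 3. GINS3 and GINS4 were at -0.55 and -0.58 on day 3.

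CDC45, the GINS partner in the active helicase, read 14.4, 15.6 and 14.0 in untreated spheroids, 9.93 and 8.92 on day 3 of CONV-TOPO and EE-TOPO, and 13.2 and 13.8 on day 7, and both day 3 libraries lay below all untreated ones. DBF4, the activating subunit of the CDC7 kinase, read 20.5, 12.9 and 19.0 in untreated spheroids, 11.5 and 13.0 on day 3 of CONV-TOPO and EE-TOPO, and 15.0 and 9.69 on day 7. Untreated day 3 was low as well, and the day 3 ratio was -0.07. CDC7 itself was at -0.39 and -0.58 on days 3 and 7. No firing factor passed on either day.

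**Figure D4:**
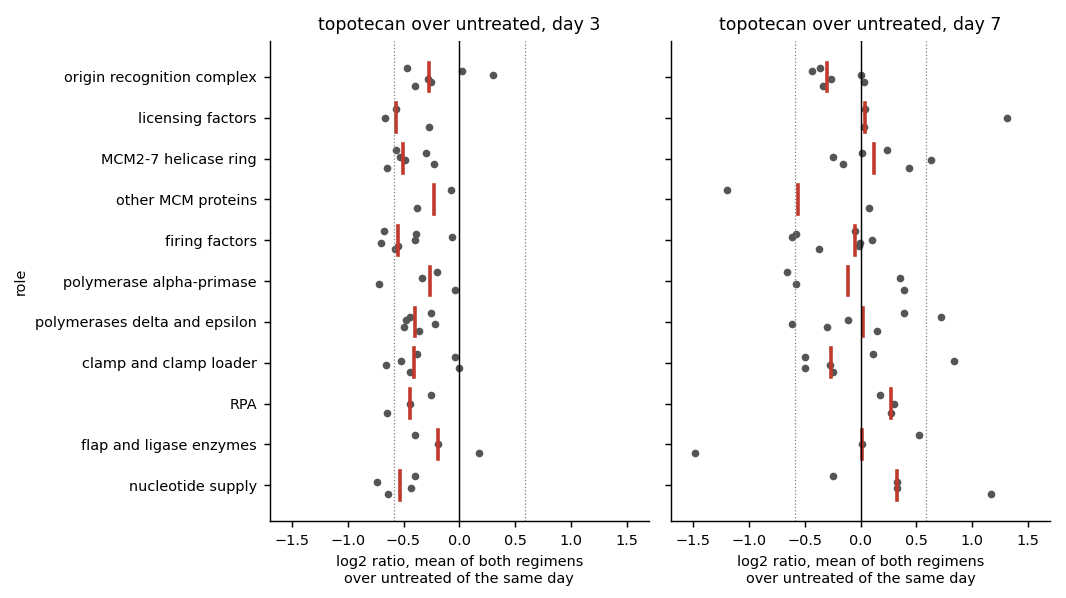
Log2 ratio to untreated of the same day, as the mean of both regimens, for each member (points) grouped by role, with a red bar at the role's median and dotted lines at 1.5-fold. Every role has its median below 0 on day 3, from -0.19 (flap and ligase enzymes) to -0.56 (licensing factors), and on day 7 the role medians run from -0.56 (other MCM proteins) to 0.33 (nucleotide supply), or with library totals from -0.78 to 0.09.

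Polymerase alpha-primase was uneven. PRIM1, the catalytic primase subunit, read 13.5, 15.4 and 11.9 in untreated spheroids, 8.70 and 9.20 on day 3 of CONV-TOPO and EE-TOPO, and 7.37 and 7.92 on day 7, so every treated library lay below every untreated one. Its mean ratios were -0.72 ± 0.243 on day 3 (adjusted p = 0.324) and -0.58 ± 0.243 on day 7 (adjusted p = 0.0853). PRIM2, its partner subunit, read 19.8, 17.4 and 14.2 in untreated spheroids, 17.0 and 16.8 on day 3 of CONV-TOPO and EE-TOPO, and 16.2 and 21.9 on day 7, near untreated on day 3. On day 7 PRIM1 lay below and PRIM2 above untreated day 7 in each regimen, and by the mean of the regimens this held with library totals.

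POLA1, the catalytic polymerase subunit, read 25.7, 23.6 and 25.1 in untreated spheroids, 19.2 and 21.7 on day 3 of CONV-TOPO and EE-TOPO, and 17.8 and 13.4 on day 7. It fell on day 7, to a ratio of -0.66 ± 0.230 (adjusted p = 0.0456). That call was lost under median-of-ratios factors, without the filter and without the mean-variance trend. POLA2, its accessory subunit, read 33.2, 41.8 and 32.2 in untreated spheroids, 36.1 and 30.3 on day 3 of CONV-TOPO and EE-TOPO, and 44.99 and 38.2 on day 7. It lay above untreated day 7 in each regimen and was not called.

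Of the polymerases delta and epsilon, a delta subunit rose and an epsilon subunit fell on day 7. POLD2, an accessory subunit of the lagging-strand polymerase, read 124, 143 and 114 in untreated spheroids, 109 and 101 on day 3 of CONV-TOPO and EE-TOPO, and 186 and 193 on day 7. It rose on day 7 by 0.72 ± 0.132 (adjusted p = 0.00285) under all 8 alternatives, and both day 7 libraries lay above all others. POLE, the catalytic subunit of the leading-strand polymerase, read 43.1, 57.7 and 56.5 in untreated spheroids, 53.6 and 45.5 on day 3 of CONV-TOPO and EE-TOPO, and 35.3 and 37.9 on day 7. It fell on day 7, to a ratio of -0.61 ± 0.166 (adjusted p = 0.0172), a call lost without the filter, without the mean-variance trend and against untreated days 0 and 7 as 1 group.

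POLE2, another epsilon subunit, read 13.7, 15.1 and 13.6 in untreated spheroids, 10.8 and 9.94 on day 3 of CONV-TOPO and EE-TOPO, and 9.92 and 11.8 on day 7, below untreated on both days and not called. POLD1, the catalytic subunit of delta, read 63.2, 64.1 and 56.5 in untreated spheroids, 59.1 and 48.4 on day 3 of CONV-TOPO and EE-TOPO, and 74.5 and 74.1 on day 7, with both day 7 libraries above all untreated ones. POLD3, an accessory subunit, had ratios of -0.47 on day 3 and -0.11 on day 7. POLE3, a histone-fold subunit of epsilon, had ratios of -0.36 and 0.15 on days 3 and 7. On day 3 all 6 lay below untreated in each regimen.

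PCNA, the sliding clamp, read 116, 106 and 94.6 in untreated spheroids, 79.6 and 82.7 on day 3 of CONV-TOPO and EE-TOPO, and 99.8 and 105 on day 7. Its fold on day 3 was 0.7502 (95% interval 0.699 to 0.804) with CONV-TOPO and 0.780 (95% interval 0.733 to 0.829) with EE-TOPO, both libraries below all untreated ones. On day 7 its ratio was 0.11, with both libraries between the untreated ones, and with library totals it lay below untreated day 7. It passed on neither day.

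The clamp loader split by subunit. RFC2, a small subunit, read 46.4, 52.4 and 32.5 in untreated spheroids, 36.5 and 35.8 on day 3 of CONV-TOPO and EE-TOPO, and 61.9 and 55.9 on day 7. It rose on day 7 by 0.84 ± 0.158 (adjusted p = 0.00324), a call lost with all 3 untreated libraries as 1 group. RFC1, the large subunit, was at 63.2 scaled CPM in untreated and at 58.7 and 64.6 in treated spheroids on day 3, and at 57.9 against 39.4 and 42.0 on day 7. It fell on day 7, to a ratio of -0.50 ± 0.153 (adjusted p = 0.0286), and the call was lost without the filter and without the mean-variance trend.

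RFC3 read 23.0, 32.3 and 21.7 in untreated spheroids, 20.3 and 19.8 on day 3 of CONV-TOPO and EE-TOPO, and 16.9 and 18.6 on day 7. On day 3 its fold was 0.630 (95% interval 0.550 to 0.721) with CONV-TOPO and 0.614 (95% interval 0.545 to 0.692) with EE-TOPO. RFC4 read 18.3, 15.8 and 21.9 in untreated spheroids, 16.5 and 15.1 on day 3 of CONV-TOPO and EE-TOPO, and 16.1 and 14.4 on day 7, with counting intervals that held a fold of 1 on day 3 and a mean ratio of -0.50 on day 7. RFC5 had ratios of -0.44 and -0.25 on days 3 and 7. Of the 5 loader subunits, which act as a complex, RFC2 alone lay above untreated on day 7 by the mean of the regimens.

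The 3 subunits of RPA, the single-strand binding protein, lay below untreated on day 3 and above it on day 7 in each regimen, on the trimmed-mean scaling. With library totals RPA1 lay below untreated day 7 in each regimen, RPA2 in CONV-TOPO and RPA3 in EE-TOPO. RPA1, the large subunit, read 81.2, 80.8 and 74.2 in untreated spheroids, 68.5 and 66.8 on day 3 of CONV-TOPO and EE-TOPO, and 86.2 and 81.3 on day 7. RPA2, the subunit phosphorylated under replication stress, read 59.4, 70.8 and 53.3 in untreated spheroids, 52.1 and 51.2 on day 3 of CONV-TOPO and EE-TOPO, and 61.9 and 70.2 on day 7. RPA3, the small subunit, read 37.7, 33.0 and 29.8 in untreated spheroids, 21.3 and 20.1 on day 3 of CONV-TOPO and EE-TOPO, and 39.96 and 32.6 on day 7. RPA3 had the widest change of the 3 between the days, from -0.65 on day 3 to 0.27 on day 7. None passed on a single day, and RPA2 and RPA3 passed as changes between the days.

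Among the enzymes that finish Okazaki fragments, FEN1 and DNA2, both of which cut flaps, moved in opposite directions. FEN1 read 89.0, 103 and 69.8 in untreated spheroids, 80.8 and 75.8 on day 3 of CONV-TOPO and EE-TOPO, and 107 and 94.4 on day 7. It rose on day 7 by 0.52 ± 0.145 (adjusted p = 0.0195), a call lost under library totals, without the mean-variance trend and with the untreated days grouped. DNA2, the nuclease of long flaps, read 14.1, 17.0 and 19.8 in untreated spheroids, 20.1 and 18.6 on day 3 of CONV-TOPO and EE-TOPO, and 6.201 and 6.66 on day 7. Its day 7 fold was 0.314 (95% interval 0.247 to 0.395) with CONV-TOPO and 0.337 (95% interval 0.265 to 0.424) with EE-TOPO, and both libraries lay below all others. Its day 7 ratio was -1.48 ± 0.225 (adjusted p = 0.00123), called under all 8 alternatives. LIG1, the ligase that seals the nick, had ratios of -0.19 on day 3 and 0.01 on day 7 and was not called.

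The nucleotide enzymes included TK1, the member with the highest level per length. TK1, thymidine kinase of the salvage route, read 202, 220.1 and 155 in untreated spheroids, 150.3 and 133 on day 3 of CONV-TOPO and EE-TOPO, and 351 and 349.9 on day 7. Both day 7 libraries exceeded every other library, and TK1 rose by 1.17 ± 0.137 (adjusted p = 0.000473), the smallest adjusted p of the 50 on that day, under all 8 alternatives. On day 3 it was at -0.64 ± 0.137 (adjusted p = 0.177), with both treated libraries below all untreated ones.

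RRM2, the S-phase subunit of ribonucleotide reductase, read 169.6, 307 and 159.7 in untreated spheroids, 189 and 179.6 on day 3 of CONV-TOPO and EE-TOPO, and 206 and 195 on day 7. Untreated day 3 stood far above the rest, and the 2 treated libraries of that day lay between untreated day 0 and untreated day 3. RRM1, the stable large subunit, read 82.1, 90.6 and 82.5 in untreated spheroids, 66.5 and 71.0 on day 3 of CONV-TOPO and EE-TOPO, and 77.4 and 62.3 on day 7, a narrower range. TYMS, which makes thymidylate, was at 149 scaled CPM in untreated and at 114 and 106 in treated spheroids on day 3, and at 108 against 137 and 135 on day 7. RRM2 and TYMS were not called on either day and passed as changes between the days.

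The 2 regimens were close for most members. On day 3 the median log2 ratio of EE-TOPO over CONV-TOPO was -0.04, and 0 members differed 1.5-fold, where 5.45% of all genes did. Counting intervals held a fold of 1 for 34 of 50 members, with no share over all genes computed. The folds farthest from 1 were 1.26 (95% interval 1.14 to 1.38) for MCM6 and 0.784 (95% interval 0.687 to 0.896) for LIG1.

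On day 7 the median of EE-TOPO over CONV-TOPO was -0.06, and GINS2 alone passed 1.5-fold on the log2(scaled CPM + 1) scale, at -0.80 (9.09% of all genes did). Its fold of scaled CPM was 0.553 (95% interval 0.447 to 0.682). DBF4 lay just inside on the log2 scale, at -0.58, with a fold of 0.645 (95% interval 0.516 to 0.805). PRIM2 went the other way, at 1.35 (95% interval 1.14 to 1.61). Intervals held a fold of 1 for 29 of 50, again with no share over all genes computed. These are single libraries, so differences of this size have no replicate check.

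Tests that pool the days called no member. In the limma fit of treatment and day, whose error is the variation of a regimen's effect between the days, 0 genes of all 14731 passed for EE-TOPO against untreated, for CONV-TOPO against untreated or for EE-TOPO against CONV-TOPO (0% each). At an unadjusted p under 0.05 the genes were 525 (3.56%), 257 (1.74%) and 129 (0.876%). Of the members, PRIM1 alone was among them, lower with CONV-TOPO. CDT1 and TK1, below untreated on day 3 and above it on day 7, changed direction between the days, and such a change counts as error in this fit.

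Transcript composition moved with the day 7 ratios, in the members as in all genes. Spearman's rho of the day 7 ratio with the GC content of the transcript was 0.59 over the 50 members and 0.47 over the 14078 genes with a matched transcript, as a description across genes. With transcript length rho was -0.36 and -0.56. None of the 9 members under 40% GC lay above untreated on day 7, and 8 of the 9 at 55% or more did. The medians of these members, -0.44 and 0.43, were near those of all genes of the same GC content, -0.47 and 0.43. Between these ends the members lay above all genes of the same GC content. Their medians were -0.04 against -0.27 from 40% to 45% GC and 0.07 against -0.14 from 45% to 50%. From 50% to 55% the medians were 0.18 against 0.08.

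CDT1 (64.3% GC) and TK1 (60.3%) are at the rich end, and DNA2 (37.8%) is at the poor end. MCM8 (42.0%) lies between the ends, in the range from 40% to 45% where the member median was -0.04. POLE fell, at 56.4% GC. After a smooth trend on these features and on the span of the gene was taken out, the day 7 ratios of the members narrowed from the range -1.48 to 1.31 to the range -1.04 to 0.73. Of the 7 members that rose, CDT1 then stood at 0.73, TK1 at 0.50, MCM5 at 0.49, RFC2 at 0.46, FEN1 at 0.14, POLD2 at 0.09 and MCM7 at 0.08. Of the 5 that fell, DNA2 stood at -1.04, MCM8 at -0.60, POLE at -0.31, POLA1 at -0.06 and RFC1 at -0.04. FEN1, POLD2, MCM7, POLA1 and RFC1 thus lay near 0 once the trend was taken out. The part of transcript composition in the day 7 result was not tested. On day 3 the member median was -0.37 after the same removal, with 46 of 50 lower, against -0.39 before.

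**Figure D5:**
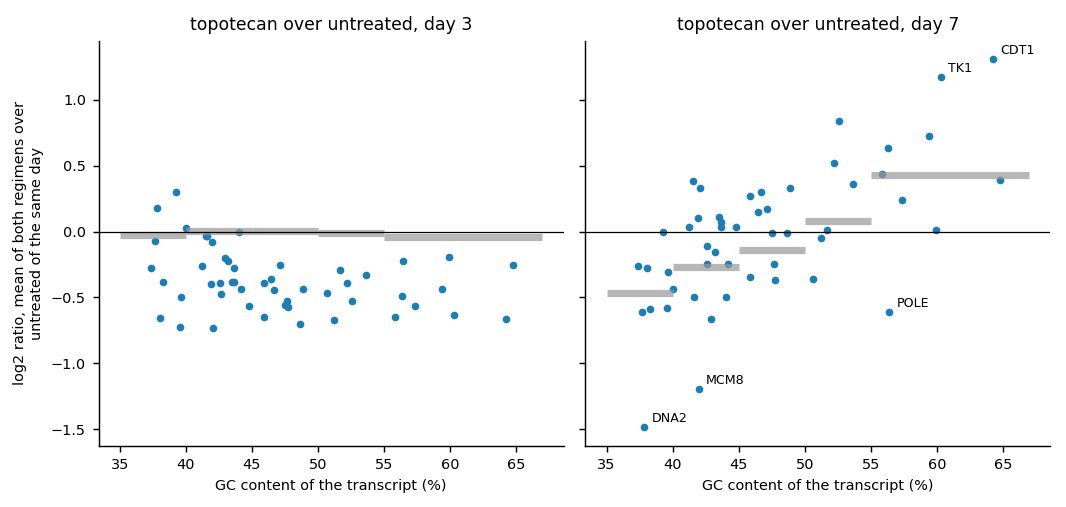
Log2 ratio to untreated (mean of both regimens) against the GC content of the canonical transcript for the 50 members on day 3 and day 7, with grey bars at the median of all genes tested in the same GC range (the outer bars stand for all genes under 40% and from 55% up). On day 7 the grey bars rise with GC content from -0.47 to 0.43, and the points rise as well. The member medians are near the bars under 40% and from 55% up, and above the bars between. On day 3 most points lie below bars that stay near 0.

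The E2F words printed above were found in 21 of 43 matched members (48.8%), in 6.49% of the 11360 tested genes with a window and in 3.31% of all 35116 windows. The day 3 median was -0.39 for the 21 members with a word and -0.39 for the 22 without. On day 7 it was 0.01 and -0.01, and 11 members of each kind lay above untreated. In untreated spheroids the median of day 3 over day 0 was 0.15 and 0.13. A window counted once however many words it held.

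The CCAAT word, which NF-Y reads, was in 25 of 43 members (58.1%, and 42.8% of tested genes). The day 3 median was -0.39 for members with it and -0.37 for those without. TTTGAA or TTCGAA, the core of the cell cycle homology region of mitotic promoters, was in MCM6, DBF4, POLE3 and RRM1, 4 of 43 (9.30%, and 15.4% of tested genes). Both words were searched on either strand.

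The rest of the pathway was read from a list of 39 other replication genes, all of which passed the filter. On day 3 their medians were -0.25 with CONV-TOPO and -0.35 with EE-TOPO, and 0 were called by limma, with 15 at an unadjusted p under 0.05, all lower. The lowest mean ratio was that of DTL, an adaptor for destruction of CDT1, at -0.89. DTL read 29.8, 65.0 and 25.0 in untreated spheroids, 36.3 and 33.3 on day 3 of CONV-TOPO and EE-TOPO, and 28.1 and 32.3 on day 7, and untreated day 3 stood apart. RNASEH2B, a subunit of ribonuclease H2, followed at -0.76, and MCM9, the MCM8 partner, was highest at 0.48, with TICRR, a firing factor, at 0.42.

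On day 7, 18 of the 39 were called, where 39.1% of all genes were, 6 higher and 12 lower (5 higher and 16 lower with library totals). The lowest ratios were those of TOP2A, topoisomerase II alpha, at -1.25, and TOPBP1, a scaffold for firing and checkpoint proteins, at -1.21. The highest ratios were those of POLD4 and POLE4, small subunits of polymerases delta and epsilon, at 1.23 and 1.04. POLD4 read 47.0, 56.7 and 47.0 in untreated spheroids, 43.6 and 36.5 on day 3 of CONV-TOPO and EE-TOPO, and 116 and 107 on day 7. MCM9 read 9.81, 5.95 and 7.45 in untreated spheroids, 8.67 and 8.68 on day 3 of CONV-TOPO and EE-TOPO, and 2.70 and 2.68 on day 7, so both MCM8 and MCM9 had their lowest values in the 2 treated libraries of day 7.

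Reads of some members may be shared with other genes. In RefSeq, 19 of the 50 overlap another gene, 7 of them a coding one: ORC4, MCM7 (AP4M1), GINS2 (GSE1), POLE3, RFC4 (EIF4A2), RPA3 (UMAD1) and TYMS (ENOSF1). In addition 11 of the 50 have named pseudogenes, among them PCNA and RRM2. The strand setting of the counting is not given in the sources used here, so reads of these pairs cannot be told apart and their values are uncertain to that extent.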

How the data were processed

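RNA-seq libraries (TruSeq RNA kit, version 2) of 7 samples were analysed. The authors aligned reads with STAR to hg38 and deposited CPM for each gene. Their counting tool, annotation version and strand setting are not given in the sources used here. An offset of 0.0001 CPM was subtracted. Low values fell on whole reads (tolerance 0.02 reads) for 88.8% to 90.4% of genes, which gave the depths but did not allow a count test. CPM was divided by trimmed-mean factors (0.882 to 1.09) and tested as log2(scaled CPM + 1) with limma 3.58.1 (R 4.3.3), with a mean-variance trend and Benjamini-Hochberg adjustment over 14731 genes with at least 0.565 CPM (10 reads at the median depth of 17.7 M reads) in 2 of the 6 libraries of days 3 and 7. One fit had treatment and day (2 residual degrees of freedom), the other a mean for untreated and for treated spheroids of each day. On simulated data with a noise SD of 0.4, the first recovered 95% of 200 genes changed 4-fold in EE-TOPO against untreated. The second recovered 77% on day 3, and genes called falsely numbered 10 and 7. Recovery of smaller differences, such as those of the members on day 3, was not tested. Each group held 1 library, so p-values measure only the spread between these libraries, and conditional binomial intervals of folds cover counting error only.

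The 50 members, the 39 other pathway genes and the 17 mitosis genes were chosen with earlier results of these data known. Within each role, values in every library are given for the members with the highest mean CPM and with the lowest and highest mean ratio on each day, and members called in a fit are named. CDC45, MCM2, POLD1, DTL, POLD4 and MCM9 were given in full after their values were seen. Transcript features are of canonical GENCODE transcripts, matched for 14078 genes.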

Additional observations from a re-analysis of the deposited data

Results flagged for a closer look

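The effect of topotecan differed between day 7 and day 3 for 14 of the 50 members in limma, by the test of the difference itself (log2 units), where 29.0% of all genes passed. With library totals 12 members passed, and MCM2, RPA2, RPA3 and TYMS lost their calls. It was higher on day 7 by 1.97 for CDT1 (adjusted p = 0.00222), 1.81 for TK1 (0.00150), 1.36 for RFC2 (0.00313), 1.16 for POLD2 (0.00293), 1.12 for MCM5 (0.00639), 1.09 for MCM7 (0.00447) and 1.06 for RRM2 (0.00397). Smaller differences in the same direction were 0.92 for RPA3 (0.0323), 0.91 for FEN1 (0.0105), 0.80 for MCM2 (0.0275), 0.76 for TYMS (0.0150) and 0.75 for RPA2 (0.0277). It was lower on day 7 for DNA2, at -1.66 (0.00566), and for MCM8, at -1.12 (0.0203). The share of members that passed was no higher than that of all genes. Each value rests on 2 treated libraries and 1 untreated library on each day. The untreated day 3 library, highest for 24 of the 50 members, enters every one of these differences. Groups here hold fewer than 4 libraries, so no library was tested as an outlier.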

How the results depend on the processing

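No paired analysis was possible by replicate number because each group held 1 library, and for the same reason no replicate could be left out. The limma fit of treatment and day compared the treatments within each day. The day 3 medians moved with the untreated baseline. For CONV-TOPO they were -0.20 against the mean of 3 untreated libraries, -0.19 against untreated day 0 and -0.10 against the mean of untreated days 0 and 7 (the last chosen after seeing the data), with 2, 6 and 3 members at 1.5-fold. For EE-TOPO they were -0.24, -0.24 and -0.18, with 3 members at 1.5-fold against the mean of 3 and 3 against days 0 and 7. Day 7 medians with library totals were -0.23 for CONV-TOPO and -0.25 for EE-TOPO, against -0.26 and -0.24 over all genes. For EE-TOPO on day 7 they were -0.21 against the mean of 3 untreated libraries and -0.19 against untreated day 0, and CONV-TOPO on day 7 then had 6 and 5 members at 1.5-fold. With library totals, CONV-TOPO on day 3 had 5 members at 1.5-fold. With the trend on span, transcript length and GC content removed, a step chosen after seeing the data, members at 1.5-fold numbered 6 in CONV-TOPO on day 3, 6 in CONV-TOPO and 7 in EE-TOPO on day 7, 2 between untreated days 3 and 0 and 1 between untreated days 7 and 0. EE-TOPO against CONV-TOPO on day 7 had 2 members at 1.5-fold under median-of-ratios factors, a pseudocount of 0.25 CPM and both trend removals. These counts at 1.5-fold stand without the share of all genes in the same setting. They describe the processing and are not results about the members. Without the mean-variance trend the day 7 minus day 3 difference was called for 8 members in place of 14. Of all genes 2800 were then called in place of 4270. The causes were not tested. For all genes that difference was called higher for 2216 and lower for 2054, and for 1370 and 3374 with library totals. The other 147 values kept their direction and side of the threshold or stayed within the spread of untreated libraries (SD of the member median 0.155). Of the values for single genes, 145 of 180 kept their call, 35 lost it and 0 changed sign. One library per group and 2 residual degrees of freedom limit every test.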
